A study of Mus musculus with 15 samples.

Results

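The genes expressed in crypts of the small intestine of mice that had received only a control antibody were set against a common mouse reference RNA. Crypts are the epithelial pits between the villi. The arrays titled Control crypts 1 to 5 were taken, which are 5 of the 15 arrays of the series; the others carried crypts of mice given Notch1 and Notch2 blocking antibodies, alone or with an Lrp6 antibody, and are not described here. The mice were between 6 and 8 weeks old, had received an IgG control antibody, and their crypts were taken 24 h later; the series' design text calls the controls untreated. Strain and sex, and whether an array holds 1 mouse or several, are not given in the sources used here, though the series calls the arrays of a group biological replicates. Crypts were released from pieces of gut with a chelating buffer and strained, with no sorting of cells, so the RNA is not limited to crypt epithelium. Each array carried crypt RNA labelled with Cy5 (red) and the universal mouse reference labelled with Cy3 (green). The value of a gene is the log2 ratio of red over green, above 0 where the signal was higher in crypts and below 0 where it was higher in the reference. The dyes were never swapped, so any difference in how a probe takes up the 2 dyes is part of its ratio.

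The crypt is where the intestinal lining is made. Stem cells at its base divide, their daughters multiply on the way up and become absorptive enterocytes, mucus-secreting goblet cells, hormone-secreting enteroendocrine cells or chemosensory tuft cells, while Paneth cells stay at the base and secrete antimicrobial peptides. The universal reference is a pool of RNA from mouse cell lines of several tissues, grown in culture, so a ratio depends as much on how strongly those lines express a gene as on the crypt. The same RNA was on every array, and its own spread is therefore not part of any test. In whole crypts, more cells of a type and more RNA per cell cannot be told apart.

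Red signal was well above background on 71.1% to 79.8% of spots (75.8% ± 4.19, SD, n = 5), and no spot was saturated. The arrays lay on 2 slides. On slide 1, which held control arrays 1, 2 and 3, the share in red was 77.9% to 79.8%. On slide 2, which held control arrays 4 and 5, it was 71.1% and 71.3%. Ratios of pairs of arrays correlated at 0.973 to 0.993 over all features, within and between slides alike. The number of arrays limits the precision. After genes dim in both channels were left out, 24605 features remained, of which 16565 had a gene name. A feature is a gene, or a probe with no gene name. The brightest probe stands for a gene: of the 210 genes named in this account 46 had several probes, and in 33 of them the probes' means differed by over 1 on the log2 scale, so the size of a ratio can depend on the probe.

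Most features differed from the reference. At an adjusted p under 0.05 (limma, Benjamini-Hochberg adjustment over all features), 10391 features (42.2%) were higher in crypts and 9274 (37.7%) were lower. Those that also differed at least 2-fold were 3701 (15%) higher and 3580 (14.5%) lower. The median log2 ratio of all features was 0.05. Each gene described below as higher or lower passed the same adjusted p. At the far ends, 550 features were at least 16-fold higher and 155 at least 16-fold lower. Of the 24605 features, 21219 were above background in both channels on at least 4 arrays, 2253 in the crypt channel alone and 1133 in the reference channel alone. Of those in the crypt channel alone 1619 were higher and 3 lower, and of those in the reference channel alone none was higher and 1064 were lower: the channel that let them in sets their direction, and ratios of such genes are given with the number of arrays on which the other channel was above background. The zero point rests on the normalization. When each array was centred on its median in place of the intensity-dependent loess curve, 13906 features were higher and 6897 lower, so the higher share of the calls was 66.8% and not 52.8%, and the median ratio was 0.27. All 7281 features with a 2-fold difference kept their sign there, and small ratios below are given as values.

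**Figure D1:**
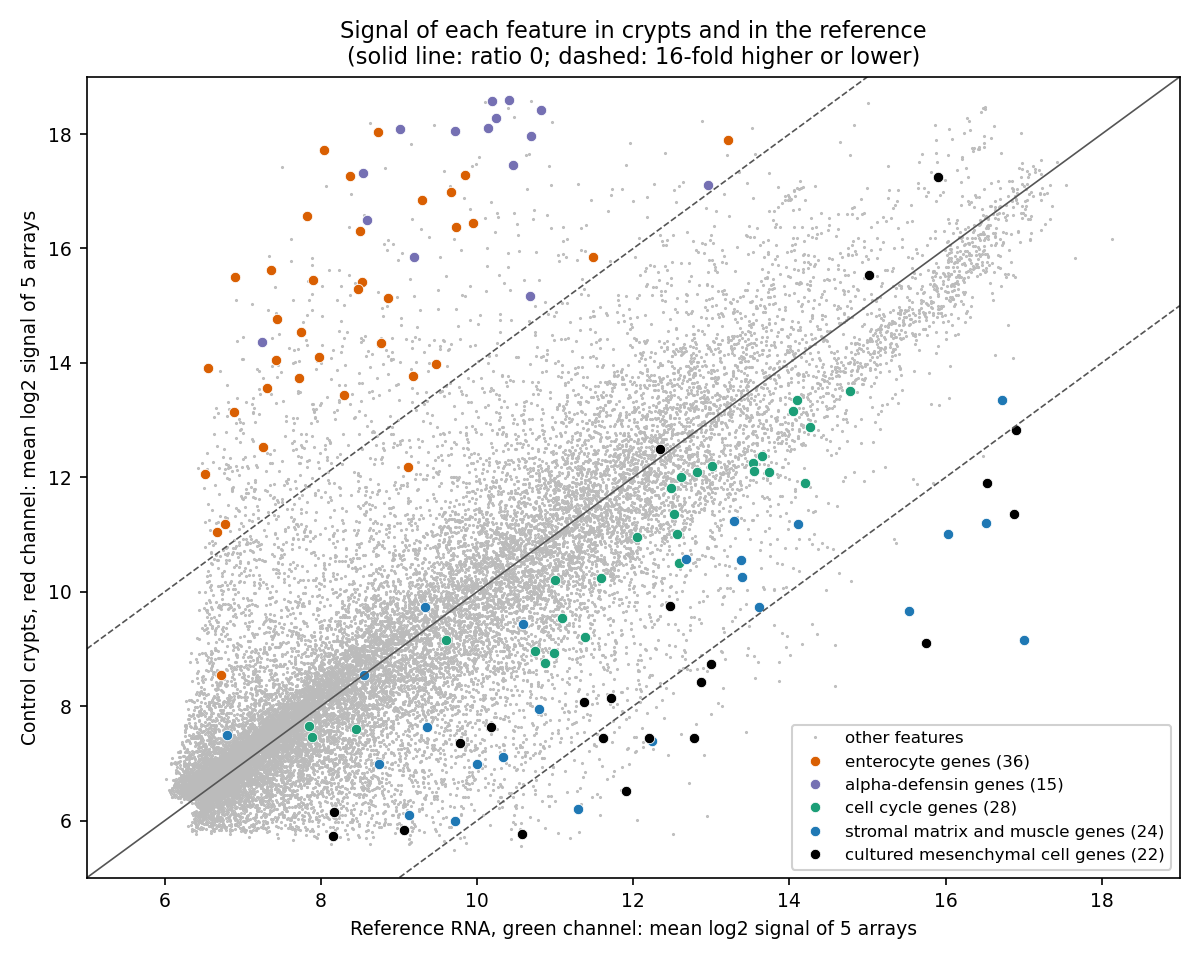
Mean log2 signal of each of 24605 features in the reference (horizontal axis) and in control crypts (vertical axis), over 5 arrays, with 5 gene lists in colour. Enterocyte genes other than Fgf15 and Ace and all alpha-defensin genes lie above the upper dashed line (16-fold), cell cycle genes lie just below the solid line of equal signal, and most stromal and cultured mesenchymal cell genes lie far below it.

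The highest ratios belonged to secreted and digestive proteins of the intestinal lining. Reg1, a lectin-like protein of the regenerating family, stood first. Its log2 ratio was 10.01, 9.80, 9.76, 9.97 and 10.01 on control arrays 1 to 5, a mean of 9.91 ± 0.057 (SE, as after every later ±), or 962-fold, with an adjusted p of 1.7e-11. All 5 arrays lay far from the reference, with array 3 the lowest. Fabp1, which carries fatty acids in the enterocyte, had ratios of 9.74, 9.47, 9.58, 9.85 and 9.78, a mean of 9.68 ± 0.065 (823-fold). Reg3b, a lectin that kills bacteria, had 9.63, 9.47, 9.46, 9.74 and 9.54, a mean of 9.57 ± 0.057, and its relative Reg3g had a mean of 8.68 ± 0.070. Fabp2, the second fatty acid carrier, had a mean of 9.30 ± 0.075. Next came the alpha-defensins Defa40 (9.07) and Defa27 (8.78), the goblet cell protein Clca1 (9.02), the brush border protease subunit Mep1b (8.90) and the sugar-splitting enzyme Sis (8.74). These are the 10 genes with the highest ratios among those above background in both channels on all 5 arrays, with folds from 409 to 962 and normalized red signals between 16.57 and 18.19 on the log2 scale. Before normalization, their background-subtracted green signal was 0.0298% to 0.145% of the red one, so these shares are not the inverse of the normalized folds. Across all spots the lowest green signals rose with the red ones: the 5th percentile of green, after background subtraction, was 23.0 intensity units at red signals of 100 to 300 and 361 at red signals above 100000. How far a very bright red spot adds to its own green reading was not tested.

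**Figure D2:**
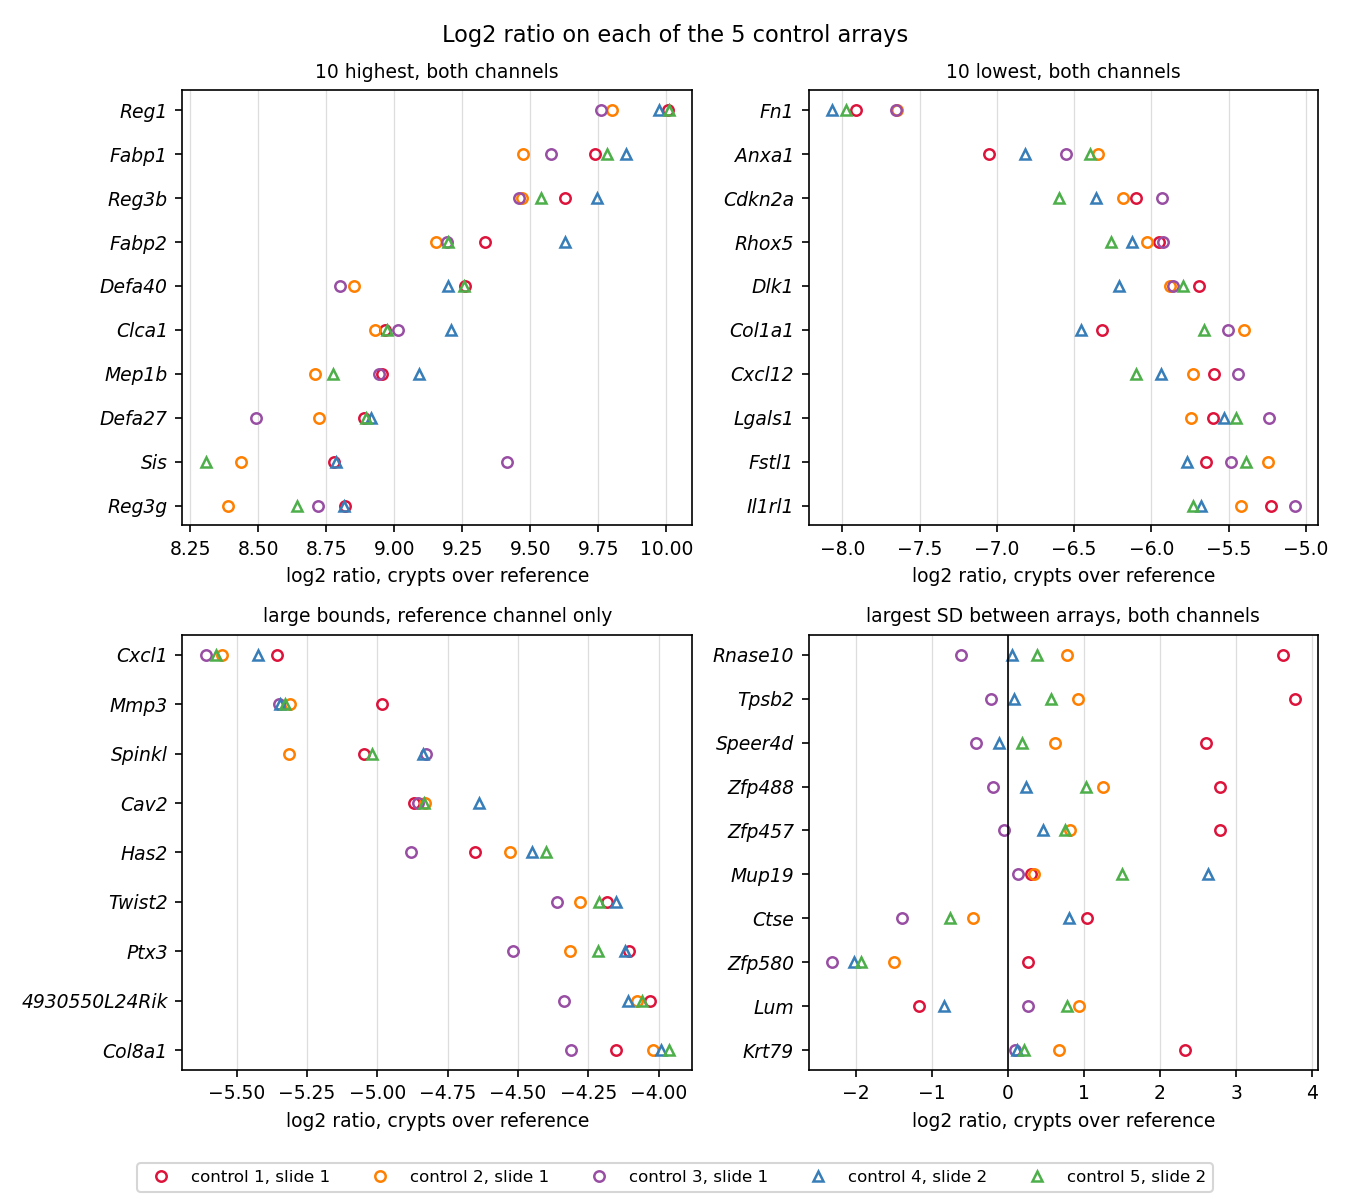
Log2 ratio of crypts over reference on each of the 5 control arrays for the 10 highest genes, the 10 lowest genes, 9 genes with large bounds in the reference channel, and the 10 genes with the largest SD. Circles are arrays of slide 1 and triangles those of slide 2. Points of the high and low genes lie close together, from 9.76 to 10.01 for Reg1 and from -8.07 to -7.64 for Fn1, whereas Rnase10 in the last group ranges from -0.62 to 3.61.

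All 36 enterocyte genes tested were higher in crypts, with a median log2 ratio of 6.56 against 0.05 over all features; 31 of them were above background in both channels, and all 31 were higher. These genes encode the machinery of digestion and absorption, which is best known from the villus. The brush border enzymes included lactase, Lct (7.43 ± 0.091), and the peptidase Enpep (8.26 ± 0.098). For fat uptake and export, Mttp, which loads lipid onto chylomicrons, had 7.80 ± 0.068, and the apolipoproteins Apoa4, Apob and Apoa1 had 6.82, 6.79 and 6.50. The drug-metabolizing enzyme Cyp3a11 had ratios of 8.55, 8.28, 8.65, 8.80 and 8.71, a mean of 8.60 ± 0.076; its other probe had 5.76. The smallest ratio of the list was that of Fgf15, the bile acid-induced hormone of the ileum, at 1.53, 2.67, 2.30, 1.74 and 0.89 on arrays 1 to 5, a mean of 1.83 ± 0.22 with green above background on 3 arrays. Array 5 was the lowest and array 2 the highest.

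Some genes were above background in crypts on all 5 arrays and in the reference on none, so only a bound can be given: the mean crypt signal over the dimmest reference signal that counts as above background, or over the probe's own signal where that was higher, as it was for each gene given here. Slc6a19, which takes up neutral amino acids, was at least 165-fold higher in crypts. The 9 next bounds were those of the sulfate transporter Slc13a1 (at least 59.6-fold), the lactate transporter Slc5a12 (at least 55.0-fold), Mgat4c (at least 53.2-fold), Smlr1 (at least 49.0-fold), Nat8f5 (at least 39.4-fold), Dnah2 (at least 28.2-fold), Tmprss15, the enteropeptidase that activates trypsin (at least 26.2-fold), the aryl hydrocarbon receptor target Cyp1a1 (at least 25.8-fold) and the prostaglandin-degrading Hpgd (at least 19.4-fold). Each bound is that of the brightest probe: second probes of Slc5a12, Mgat4c and Hpgd, also above background in crypts alone, had log2 ratios of 4.29, 3.26 and 2.99. The ratios of Slc6a19 differed between arrays, from 6.66 on array 5 to 8.13 on array 3. For the genes given here the bound is the mean ratio itself. Over the processing settings run, the log2 ratio ranged from 6.05 to 10.83 for Slc6a19, 4.70 to 10.10 for Slc13a1 and 4.48 to 9.99 for Mgat4c. Every bound in this account therefore holds for the processing used here only.

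The transcription factors that set intestinal identity were far above the reference too. Of 25 tested, 24 were higher and none was lower, and the median ratio was 3.13. Over the 23 above background in both channels, 22 were higher and none was lower. Isx, an intestine-restricted homeobox factor, had 7.14, 7.00, 7.02, 7.33 and 6.95, a mean of 7.09 ± 0.064 (136-fold). The caudal-type factors Cdx2 and Cdx1, which specify intestinal epithelium, had 6.51 ± 0.066 and 6.32 ± 0.063. Hnf4a, which drives many enterocyte genes, had 4.79 ± 0.057, and Gata4, a factor of the upper small intestine, had 2.12 ± 0.046. The leading factors varied little between arrays, and for Cdx2 the lowest stood at 6.33 and the highest at 6.71.

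Promoters are shown for 3 genes at the upper end and 1 at the lower, because binding motifs known for the Cdx and Hnf4 factors lie in the first 3. The sequences are the 250 bases before the gene's start from RefSeq (GRCm38.p6), written 5′ to 3′ on the gene's strand, with motif matches on either strand in capitals (a match on the other strand reads as its reverse complement). They are Sis (chr3:72967864-72968113, minus strand), Fabp1 (chr6:71199629-71199878, plus strand), Cyp3a11 (chr5:145879855-145880104, minus strand) and Anxa1 (chr19:20390672-20390921, minus strand), the last with no match to the motifs searched, shown for contrast.
Sis: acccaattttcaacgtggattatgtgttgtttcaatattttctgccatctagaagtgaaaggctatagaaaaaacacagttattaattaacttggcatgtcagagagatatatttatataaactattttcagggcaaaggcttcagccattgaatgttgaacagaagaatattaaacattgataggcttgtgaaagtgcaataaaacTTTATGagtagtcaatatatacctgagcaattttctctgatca
Fabp1: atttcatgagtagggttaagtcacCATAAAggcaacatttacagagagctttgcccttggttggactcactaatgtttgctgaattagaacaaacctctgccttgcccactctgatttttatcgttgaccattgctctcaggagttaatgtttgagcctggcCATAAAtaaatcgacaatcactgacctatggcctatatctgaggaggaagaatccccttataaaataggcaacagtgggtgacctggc
Cyp3a11: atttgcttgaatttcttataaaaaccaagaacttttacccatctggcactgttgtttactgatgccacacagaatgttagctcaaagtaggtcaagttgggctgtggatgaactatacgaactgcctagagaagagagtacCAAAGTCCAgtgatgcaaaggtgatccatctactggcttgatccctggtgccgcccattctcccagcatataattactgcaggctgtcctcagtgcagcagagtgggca
Anxa1: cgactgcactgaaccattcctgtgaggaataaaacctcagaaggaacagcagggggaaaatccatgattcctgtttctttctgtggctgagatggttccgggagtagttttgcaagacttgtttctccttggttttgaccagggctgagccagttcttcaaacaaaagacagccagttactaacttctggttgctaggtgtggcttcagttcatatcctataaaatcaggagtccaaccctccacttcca
In Sis the capitals mark a Cdx motif 43 bases before the start, in Fabp1 Cdx motifs 226 and 88 bases before it, and in Cyp3a11 an Hnf4 motif at 109. Both motifs and a Gata motif were searched over 300 bases (250 before and 50 after the start), on both strands and whether or not matches overlapped. The Hnf4 motif CAAAGTCCA was in the promoters of 11 of 276 named genes at least 16-fold higher in crypts and above background in both channels (3.99%). It was in those of 1 of 77 genes at least 16-fold lower (1.30%) and of 0.486% of all 22862 genes. For the Cdx motif TTTATG the shares of the same sets were 12.3%, 7.79% and 12.6%, and for the Gata motif AGATAA 13.8%, 6.49% and 11.5%. Only genes with 1 promoter in the table entered, 276 of the 450 high genes and 77 of the 123 low ones. These matches are descriptions of letters and not binding sites.

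Paneth cell genes and the alpha-defensins, small antibacterial peptides of Paneth cell granules, were among the highest of all. All 15 alpha-defensin genes tested were higher, with a median log2 ratio of 7.91 and a range from 4.16 (Defa39) to 9.07 (Defa40). Defa40 had 9.26, 8.85, 8.80, 9.20 and 9.26 on the 5 arrays, and arrays 2 and 3 were the lowest. The genes are close copies of each other, so probes of one may bind RNA of another, and their ratios are not independent of each other. Of the 16 Paneth cell genes tested, 13 were higher and 3 lower, with a median of 7.05. Several of the 16 are alpha-defensins counted above, so the medians of the list and the family are not independent. Members of the list other than alpha-defensins ranged from -1.69 to 7.57. Lysozyme, Lyz1, had 7.61, 7.47, 7.30, 7.75 and 7.73, a mean of 7.57 ± 0.073. The lectin Itln1 had 7.26 ± 0.094, the ribonuclease Ang4 5.79 ± 0.090, and Mmp7, the protease that activates alpha-defensins, 5.29 ± 0.088. Those below 0 were the receptor Fgfrl1 (-0.62), the bacterial sensor Nod2 (-0.83) and the coat protein gene Copz2 (-1.69), each with the same sign on all 5 arrays.

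Goblet cell genes were higher in 24 of 26 cases, with 1 lower and a median of 3.58. Over the 23 above background in both channels, 21 were higher and 1 lower. Clca1, a protein secreted with mucus, had 8.97, 8.93, 9.01, 9.21 and 8.97, a mean of 9.02 ± 0.055. The mucus proteins Zg16, Fcgbp and Tff3 had 6.53 ± 0.066, 6.37 ± 0.054 and 5.68 ± 0.059, and Agr2, which folds mucin in the endoplasmic reticulum, 6.82 ± 0.077. The master regulators of the lineage were high as well: Spdef had 5.35 ± 0.055, and Atoh1, seen in green on no array, was at least 19.3-fold higher. The member below 0 was Gfi1, a factor that acts after Atoh1, at -0.32, -0.10, -0.54, -0.16 and -0.09, and its sign turned when arrays were centred on the median (0.22). Among 7 mucins tested, Muc13 (7.82 ± 0.099), Muc4 (6.06 ± 0.088, with 1.12 on a second probe) and Muc2 (5.29 ± 0.082) were at least 2-fold higher. Muc5ac and Muc5b, the mucins of stomach and airway, had 0.07 (adjusted p = 0.28) and 0.00 (adjusted p = 0.97) in the limma fit, and did not pass.

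Hormone and granule genes of enteroendocrine cells, which are scattered singly through the epithelium, were far above the reference. Of 31 genes tested, 28 were higher and 3 lower, with a median ratio of 2.19 (3.98 with the scanner software's own log ratio). At least 2-fold higher were 22. In the crypt channel alone were 7 of the 31, and that channel sets their direction. Over the 24 above background in both channels, 21 were higher and 3 lower, with a median of 2.53. The granule protein Chgb had 7.76, 7.72, 7.60, 8.02 and 8.07, a mean of 7.84 ± 0.077 (229-fold), and its relative Chga 5.26 ± 0.077. The hormones secretin (Sct), cholecystokinin (Cck), the incretin Gip, proglucagon (Gcg) and somatostatin (Sst) had 6.17 ± 0.074, 5.38 ± 0.069, 5.06 ± 0.082, 4.84 ± 0.048 and 3.43 ± 0.067. Neurog3, the factor that commits progenitors to the lineage, had 2.92, 2.99, 1.99, 2.84 and 3.22 on the 5 arrays, a mean of 2.79 ± 0.15, and array 3 was the lowest. Cpe, an enzyme that trims prohormones in many endocrine and neural cells, was lower, at -2.70 ± 0.052, with all 5 arrays between -2.81 and -2.57.

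Tuft cell genes lay on both sides of the reference. Of 19 tested, 12 were higher and 5 lower, beside 42.2% and 37.7% of all features, and the median was 0.79. In the crypt channel alone were 2 of them. Over the 17 in both channels, 10 were higher and 5 lower, with a median of 0.67. The receptor Siglecf had 3.14 ± 0.070 with green above background on 2 arrays and 0.58 on a second probe, and the taste-pathway channel Trpm5 had 1.36, 1.35, 1.29, 1.46 and 1.39, a mean of 1.37 ± 0.047. Rgs13, seen in green on no array, was at least 6.66-fold higher. By contrast Ptgs1, a cyclooxygenase, was at -3.28 ± 0.046, and Alox5ap, needed for leukotriene synthesis, at -1.55 ± 0.055; both are also made by blood cells. Dclk1, the usual tuft cell marker, had -0.66, -0.35, -0.31, -0.25 and -0.54, a mean of -0.42 ± 0.069, and its 3 probes had means of -0.42, -0.07 and -2.55. It turned to 0.048 when arrays were centred on the median, to 0.048 without control array 4 and to 0.15 on the arrays of slide 1 alone. Pou2f3, the factor that specifies tuft cells, had -0.05 with an adjusted p of 0.39 in the limma fit.

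Stem cell genes were above the reference in 14 of 22 cases and below it in 4, with a median of 1.17. Olfm4, a common stem cell marker, was not named on the array. Lgr5, the receptor that marks crypt base columnar cells, had 2.39, 2.64, 2.37, 2.83 and 2.97, a mean of 2.64 ± 0.094, with green above background on 2 arrays. Ascl2, the Wnt-driven factor of those cells, had 2.93, 3.13, 2.46, 3.29 and 3.47, a mean of 3.05 ± 0.13. In both genes array 3 was the lowest and array 5 the highest. Smoc2 (2.72 ± 0.083) and the Wnt feedback genes Rnf43 (2.77 ± 0.054) and Axin2 (1.93 ± 0.066, with 0.21 on a second probe) were higher as well. Prom1, which is also made by dividing progenitors, had the largest ratio, 7.07 ± 0.079, and 3.29 on a second probe. Sox9, a Wnt target of the crypt base that many other tissues use, had -0.13, -0.07, -0.45, 0.09 and 0.16 and did not pass (adjusted p = 0.40, limma). Bmi1, the Polycomb gene once proposed to mark reserve stem cells, was lower at -1.95 ± 0.045 with all arrays between -2.03 and -1.91.

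Cell cycle genes lay below the reference: all 28 tested were lower, 17 of them at least 2-fold. The median ratio was -1.27, and it ranged from -1.57 to -0.90 over all alternative settings. Rrm2, a subunit of the enzyme that makes deoxynucleotides, had -2.37, -2.05, -2.85, -2.14 and -2.04, a mean of -2.29 ± 0.12. Of the mitotic genes, Tpx2 had -2.16 ± 0.063 (-0.84 on a second probe), Bub1 -2.11 ± 0.090, Ccnb1 -2.07 ± 0.074 (-1.26 and -1.04 on its other probes) and Cdk1 -1.77 ± 0.083, the last with a second probe at -0.04. The proliferation marker Mki67 had -0.96, -0.81, -1.17, -0.85 and -0.67, a mean of -0.89 ± 0.072, and its red signal was above background on all arrays. Array 3 was the lowest for 25 of the 28 genes and array 5 the highest for 19.

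All 32 genes of epithelial junctions, keratins and the brush border that could be tested were higher, with a median of 5.07. Among them were the adhesion proteins Cdh1 (7.04 ± 0.050) and Epcam (5.13 ± 0.078), the microvillus protein Vil1 (7.44 ± 0.081) and the keratin of mature intestinal epithelium, Krt20 (7.38, 7.45, 7.56, 7.71 and 7.34, a mean of 7.49 ± 0.064). Krt19 and Krt8 had 5.01 ± 0.075 and 3.89 ± 0.077, but their partner Krt18 only 0.58 ± 0.048. The whole keratin family, most of whose members belong to skin and hair, had a median of 0.22 over 44 genes. Claudins, which seal tight junctions, showed the same split: Cldn3 (6.14 ± 0.055), Cldn7 (5.83 ± 0.051) and the pore-forming Cldn15 (3.97 ± 0.056) stood high, Cldn2, seen in green on 2 arrays, had 4.32 and 1.08 on a second probe, and the median of 19 claudins was 0.31.

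All 18 genes of ion and fluid transport tested were higher, each at least 2-fold, with a median of 3.70. Vipr1, the receptor of a peptide that evokes secretion, had 7.39, 7.36, 7.48, 7.74 and 7.63, a mean of 7.52 ± 0.067, and 3.04 on a second probe. Guca2a, the hormone guanylin, and Gucy2c, its receptor, had 6.18 ± 0.061 and 4.61 ± 0.069. The potassium channel Kcnq1 had 5.95 ± 0.081 and the chloride channel Cftr, the gate of crypt secretion, 1.54, 1.55, 2.01, 1.56 and 1.93, a mean of 1.72 ± 0.085. Slc26a3, which exchanges chloride for bicarbonate, had 5.23 ± 0.18 with green above background on 1 array.

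Of 18 mucosal defence genes tested, 16 were higher and 2 lower, with a median of 5.16. Beside the Reg genes, the chemokine Ccl25, which draws lymphocytes to the small intestine, had 7.50, 7.54, 7.62, 7.61 and 7.31, a mean of 7.52 ± 0.058; a dimmer probe of the same gene had -0.02. Duoxa2, the maturation factor of an epithelial peroxide-making oxidase, had 6.32 ± 0.058, and 3.04 on a second probe. Pigr, which carries IgA across the epithelium, had 3.95, 3.01, 4.45, 3.34 and 3.12, a mean of 3.58 ± 0.20, and a dimmer probe had 6.28, with array 3 the highest and array 2 the lowest. The serum amyloid genes were split: Saa2 had 5.63, 6.55, 6.90, 7.00 and 5.81, with green above background on 2 arrays, and Saa1 2.09, 2.78, 3.38, 3.19 and 2.15, whereas Saa3, a form made by macrophages and fibroblasts, had -4.19, -4.26, -3.88, -4.24 and -4.53. In Saa1 and Saa2 alike, arrays 3 and 4 were above 1 and 5. Since the sequences of Saa1 and Saa2 are close copies, their probes may share signal.

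**Figure D3:**
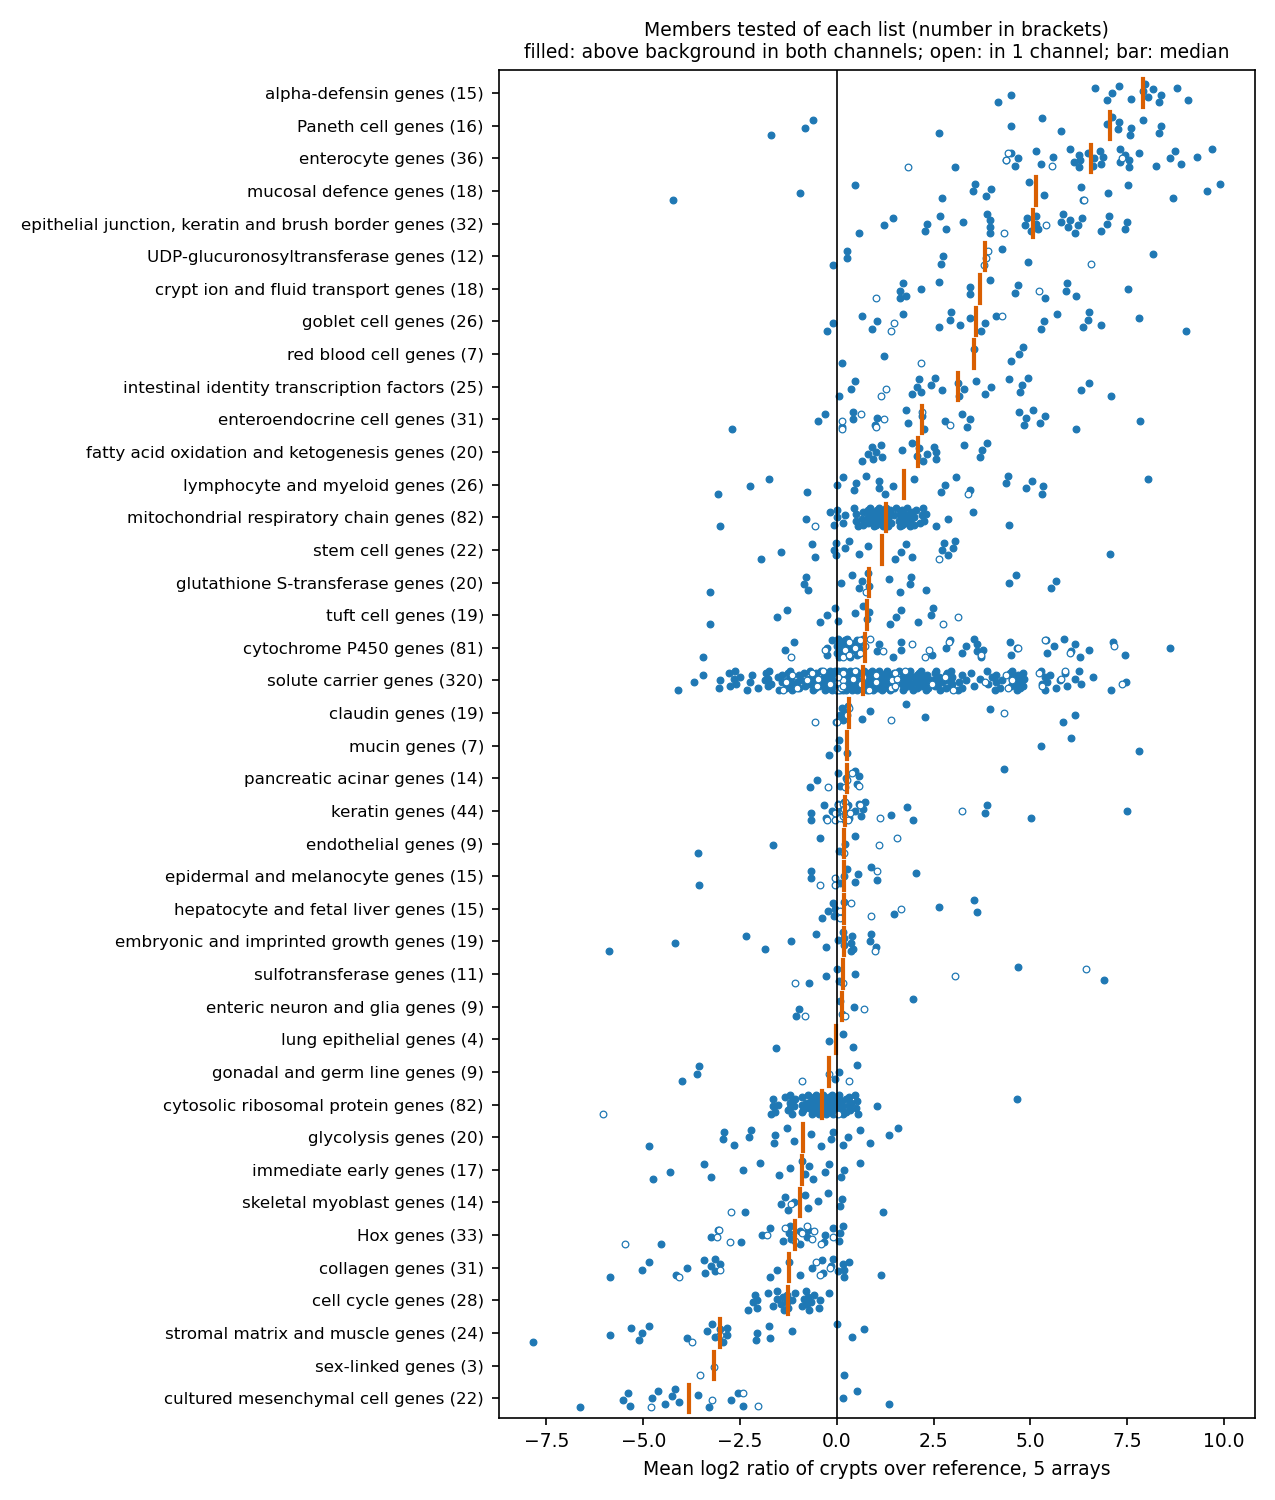
Mean log2 ratio (5 arrays) of every tested member of 41 gene lists and families, ordered by median. Alpha-defensin, Paneth and enterocyte genes lead with medians of 7.91, 7.05 and 6.56, the cultured mesenchymal genes are last at -3.83, and several lists hold members on both sides of 0. Several alpha-defensins are also members of the Paneth cell list.

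Genes of energy supply divided by pathway. All 20 genes of fatty acid oxidation and ketogenesis were higher (median 2.11), among them Acsl5, which activates fatty acids, at 3.89 ± 0.13 and Cpt1a, the mitochondrial gate, at 1.96 ± 0.053. Of 82 subunits of the mitochondrial respiratory chain, 74 were higher and 3 lower, with a median of 1.26. Isoforms of one subunit lay on both sides: Cox6a1, the broadly expressed form, had 3.53 ± 0.11 and Cox6a2, the form of heart and skeletal muscle, -3.00 ± 0.072. Cox7a1, another form named for muscle, had 4.37, 4.50, 4.44, 4.56 and 4.44, a mean of 4.46 ± 0.048. Glycolysis genes were lower in 12 of 20 cases and higher in 6, with a median of -0.88. Ldhb, a subunit of lactate dehydrogenase, was at -4.94, -4.75, -4.90, -4.99 and -4.64, a mean of -4.84 ± 0.062, while Ldha, the other subunit, was at 1.34 ± 0.056, though its 3 probes had means of 1.34, 0.24 and -0.47. The glucose transporter Slc2a1 and the first enzyme of the pathway, Hk1, had -2.66 ± 0.071 and -2.91 ± 0.053, with -1.16 on a second probe of Hk1.

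Enzymes that clear drugs and food compounds were mostly higher. Of 81 cytochrome P450 genes, 66 were higher and 8 lower, with a median of 0.72 (1.74 with the scanner's own log ratio). In the crypt channel alone were 19 of them and in the reference channel alone 2. Over the 60 in both channels, 47 were higher and 6 lower, with a median of 0.65. Cyp3a13 had 7.45 ± 0.12 (5.16 on a second probe), close behind Cyp3a11, whereas Cyp1b1, a form best known outside the liver, had -3.47 ± 0.048 with red above background on 4 arrays. Of 12 UDP-glucuronosyltransferases, which add a sugar acid to such compounds, 11 were higher and none lower, with a median of 3.84. In the crypt channel alone were 4 of them. Over the 8 in both channels, 7 were higher and none lower, with a median of 2.725. Ugt2b34 had 8.03, 8.11, 8.56, 8.23 and 7.88, a mean of 8.16 ± 0.091, and Ugt2b5, seen in green on no array, was at least 15.1-fold higher; members of both families are similar enough for probes to share RNA. Among 20 glutathione S-transferases, 15 were higher and 4 lower, from Gsta2 (5.66 ± 0.073) to Gsto2 (-3.28 ± 0.050). Of 11 sulfotransferases 6 were higher and 3 lower, beside 42.2% and 37.7% of all features, with a median of 0.16. In the crypt channel alone were 3 of them, and of the 7 in both channels 3 were higher and 2 lower (median 0.06). Sult1b1 had the largest ratio, 6.90 ± 0.054. Solute carriers, the largest transporter family, were higher in 203 of 320 cases and lower in 73 (median 0.69), and ranged from Slc27a2, a fatty acid transporter (7.46 ± 0.10), to the potassium-chloride cotransporter Slc12a4 (-4.10 ± 0.094). Over the 277 solute carriers in both channels, 177 were higher and 63 lower.

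Markers of cells other than the epithelium were looked at next, since the crypts were not sorted. Of 26 lymphocyte and myeloid genes, 21 were higher and 4 lower, with a median of 1.73. Gzma, a granzyme of cytotoxic lymphocytes, had 8.17, 7.96, 7.75, 7.88 and 8.45, a mean of 8.04 ± 0.096 (263-fold). The T cell genes Cd7 and Cd3d had 4.90 ± 0.091 and 3.44 ± 0.13. Cd8a had 3.40 ± 0.087 with green above background on 3 arrays, and 1.58 on a second probe. The class II antigen-presenting genes H2-Aa and Cd74, which intestinal epithelium can also make, had 5.32 ± 0.084 and 5.04 ± 0.097. The pan-leukocyte gene Ptprc had -0.52, 0.45, -0.06, -0.20 and 0.35 and did not pass (adjusted p = 0.97, limma). The macrophage genes Adgre1, Cd14 and Csf1r were lower, at -3.06 ± 0.10, -2.25 ± 0.062 and -1.75 ± 0.096. A second probe of Adgre1 had -1.15, and of 3 Csf1r probes, 1 had 0.84. In the crypt channel all 26 were above background on at least 4 arrays. The part of immune cells in the other results was not tested.

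Among markers of blood, vessels, nerve and pancreas, the globins stood out. The red blood cell genes were higher in 6 of 7 cases, with Hba-a2 at 4.48, 4.78, 4.80, 4.82 and 4.67, a mean of 4.71 ± 0.061; array 1 was the lowest for 5 of the 7. Endothelial genes were higher in 5 of 9 cases and lower in 3, beside 42.2% and 37.7% of all features. They ranged from Lyve1 (1.55 ± 0.064, green above background on 3 arrays) to Flt1 (-3.58 ± 0.11). In the crypt channel alone were 3 of the 9. Over the 6 endothelial genes above background in both channels, 2 were higher and 3 lower, and the median of 0.19 turned to -0.19. The genes of enteric neurons and glia were higher in 5 of 9 and lower in 3, shares near the 42.2% and 37.7% of all features, with Snap25, which endocrine cells make too, at 1.96 ± 0.14. Pancreatic acinar genes had a median of 0.25 over 14 members, with a single one above 2-fold: Clps, colipase, at 4.16, 4.18, 3.75, 4.53 and 4.92, a mean of 4.31 ± 0.15, and 3.19 on a second probe. Of 9 lung genes on the array, 4 could be tested, 2 higher and 2 lower, and the surfactant genes Sftpc, Sftpa1 and Sftpb were among the dim ones left out.

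Matrix and muscle genes were far below the reference. Of 24 stromal genes, 21 were lower and 2 higher, with a median of -3.02. Fn1, fibronectin, was the lowest gene of all those seen in both channels, at -7.91, -7.64, -7.65, -8.07 and -7.98, a mean of -7.85 ± 0.074 (231-fold lower). The collagen chains Col1a1, Col1a2 and Col3a1 had -5.87 ± 0.16, -5.02 ± 0.13 and -3.88 ± 0.19, and the fibroblast receptor Pdgfra -5.10 ± 0.050 with red above background on 4 arrays. Vim, the intermediate filament of mesenchymal cells, had -5.31 ± 0.098. Those above 0 belong to mature smooth muscle. The myosin Myh11 had 0.34, 0.95, 0.86, 0.92 and 0.46, a mean of 0.70 ± 0.10. Calponin, Cnn1, had -0.16, 0.72, 0.87, 0.60 and -0.05, a mean of 0.40 ± 0.15 (adjusted p = 0.042, limma), so its sign differed between arrays. In the crypt channel 22 of the 24 genes were above background on at least 4 arrays. Of all 31 collagen chains tested, 23 were lower and 5 higher (median -1.24, or -2.11 with the scanner's own log ratio and -0.37 with dim genes kept). Over the 26 above background in both channels, 18 were lower and 5 higher. Col14a1 was the one chain at least 2-fold higher, at 0.38, 1.63, 1.13, 0.82 and 1.72, with array 1 lowest, and its second probe had 0.11. Both the amount of stroma in the crypt samples and that of the reference's fibroblast-like lines enter these ratios, and they cannot be told apart.

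Genes typical of mesenchymal cells in culture were mostly far below the reference too. Of 22 tested, 19 were lower, each at least 2-fold, and 3 higher, with a median of -3.83. Over the 18 above background in both channels, 15 were lower and 3 higher. Anxa1, a calcium-binding membrane protein, had -7.05, -6.35, -6.55, -6.82 and -6.39, a mean of -6.63 ± 0.10, and -5.54 on a second probe. Lgals1, S100a4, Ccn2, Snai2 and Timp1 had -5.52 ± 0.073, -4.62 ± 0.072 (-6.02 on a second probe), -5.34 ± 0.11, -5.40 ± 0.082 and -4.27 ± 0.088. Against them stood Anxa2, a relative of Anxa1 that epithelia make in quantity, at 1.35 ± 0.087. Among the 10 lowest genes were also Cdkn2a, a cell cycle inhibitor induced in many cells by culture (-6.10, -6.18, -5.93, -6.36 and -6.60, a mean of -6.23 ± 0.091, with -3.14 on a second probe), Rhox5, a homeobox gene of the reproductive tract (-6.06 ± 0.061), the chemokine Cxcl12 (-5.76 ± 0.093), the secreted protein Fstl1 (-5.51 ± 0.078) and Il1rl1, the receptor of interleukin-33 (-5.43 ± 0.10). Where red was above background on no array, the reference signal was set in the same way against the dimmest crypt signal above background, and large bounds were those of the chemokine Cxcl1 (at least 41.0-fold lower), the matrix protease Mmp3 (at least 33.7-fold), Spinkl (at least 24.7-fold), Cav2 of caveolae (at least 24.5-fold, though a second probe had a log2 ratio of -2.54) and the hyaluronan synthase Has2 (at least 21.9-fold). They were followed by Twist2 (at least 18.0-fold), Ptx3 (at least 15.1-fold), 4930550L24Rik (at least 14.9-fold) and Col8a1 (at least 14.3-fold).

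Hox genes give cells their position along the body axis, and most were higher in the reference. Of 33 tested, 27 were lower in crypts and 1 was higher, with a median of -1.09 (-2.15 with the scanner software's own log ratio); over the 20 above background in both channels, 15 were lower. The extreme was Hoxc9, at -5.59, -5.52, -5.33, -5.47 and -5.44, a mean of -5.47 ± 0.052 with red above background on 3 arrays, followed by Hoxc6 at -4.55 ± 0.083 and Hoxc4 at -3.26 ± 0.053. In the Hoxc cluster 8 of 9 were lower, in Hoxb 8 of 9, in Hoxa 7 of 11 and in Hoxd 4 of 4. Of the genes tested, 5 in Hoxc, 1 in Hoxb, 5 in Hoxa and 2 in Hoxd entered through the reference channel alone. That channel sets their direction, so the counts do not compare the clusters. Hoxa4, Hoxa6 and Hoxa9 lay near 0, with 0.16, 0.09 (adjusted p = 0.14) and 0.06 (adjusted p = 0.27) in the limma fit. Neighbours in a cluster could differ widely, as Hoxa6 and Hoxa7 (-2.47 ± 0.053) did. Array 4 was the highest for 16 of the 33 genes, and array 1 the lowest for 14; Hoxb7 went from -1.98 on array 1 to -0.93 on array 4.

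**Figure D4:**
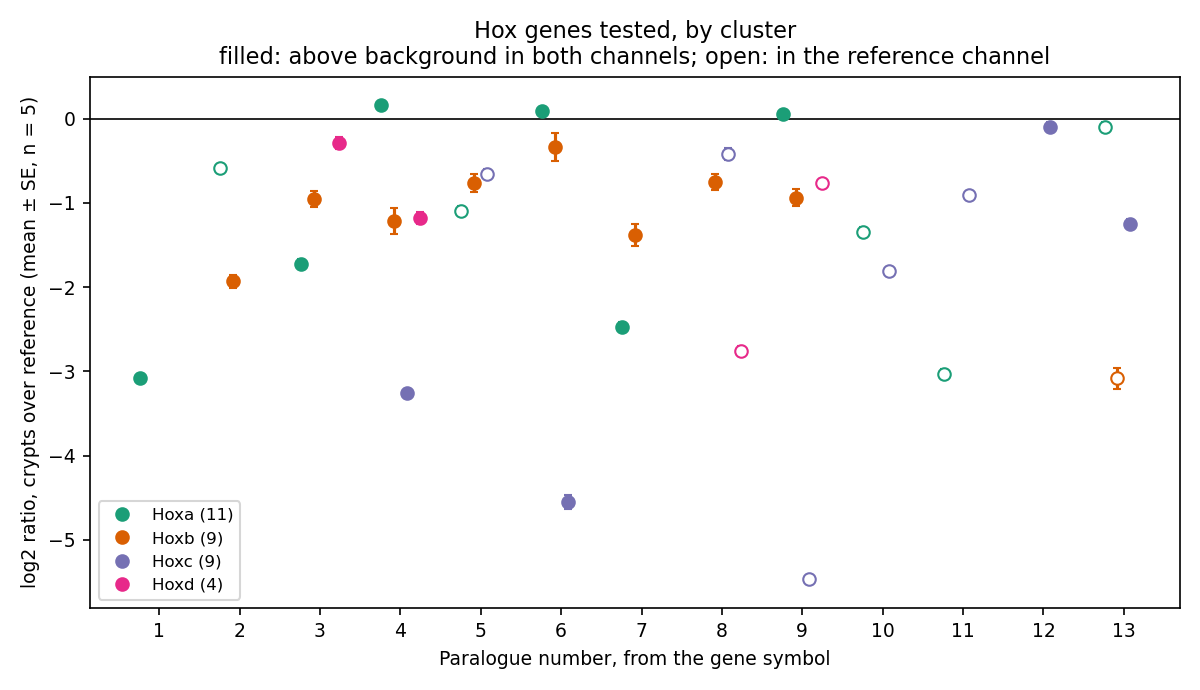
Log2 ratio (mean ± SE, n = 5) of the 33 Hox genes tested, by paralogue number and cluster; open points are genes above background in the reference channel and on fewer than 4 arrays in crypts. Hoxc9, Hoxc6 and Hoxc4 are the lowest at -5.47, -4.55 and -3.26, and Hoxa4, Hoxa6 and Hoxa9 lie near 0.

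Markers of other sources of the pool were mixed. Of 19 embryonic and imprinted growth genes, 11 were higher and 7 lower, with a median of 0.18, beside 42.2% and 37.7% of all features. The low ones reached far: Dlk1, a fetal growth regulator, had -5.69, -5.88, -5.86, -6.21 and -5.80, a mean of -5.89 ± 0.074, and Hmga2, an embryonic chromatin protein, -4.19 ± 0.065, whereas the largest of the high ones, Cdkn1c, had 1.01 ± 0.044. Second probes of Dlk1 and Hmga2 had -3.45 and -2.17. Skeletal myoblast genes were lower in 11 of 14 cases, and in 9 of the 12 above background in both channels, with Tnnt2 at -2.38 ± 0.075. Gonadal and germ line genes were higher in 2 of 9 cases and lower in 5, with a median of -0.19, which was -1.80 over the members above background in both channels; the 3 at least 2-fold lower were Wt1, Inhba and Tex19.1, at -3.55 ± 0.20, -3.61 ± 0.065 and -3.99 ± 0.047. Hepatocyte and fetal liver genes were higher in 8 of 15 cases and lower in 2, and the highest, Serpina1a, Ambp and Afp, had 3.61 ± 0.12, 3.54 ± 0.092 and 2.64 ± 0.066. Of the epidermal and melanocyte genes 8 of 15 were higher and 4 lower, with Mitf, the pigment cell regulator, lowest at -3.56 ± 0.048 and a second probe at -0.95. The share that was higher in the hepatocyte list and in the epidermal list was 53.3%, against the same 42.2%. In the crypt channel alone were 5 of the hepatocyte and 3 of the epidermal genes, and that channel sets their direction. Of 10 hepatocyte genes above background in both channels, 5 were higher and 2 lower, with a median of 0.07. Of 11 such epidermal genes, 7 were higher and 3 lower, with a median of 0.27. Of the Y-linked genes, Eif2s3y was above background in green on all arrays and in red on none, at least 9.10-fold lower in crypts, and Ddx3y was above background in red on 1 array. Xist, made from an inactive X chromosome, was above background in red and in green on all 5, with a log2 ratio of 0.18.

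Immediate early genes, which respond within minutes to growth factors and stress, were lower in 14 of 17 cases and higher in 2, with a median of -0.90. Egr1 had -4.89, -4.52, -4.93, -4.65 and -4.76, a mean of -4.75 ± 0.068, Ier3 -4.30 ± 0.056 and Nr4a1 -3.42 ± 0.068. Klf6, an early gene that is also an epithelial factor, was the larger of those above 0, at 0.60 ± 0.088.

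Cytosolic ribosomal protein genes lay close to the reference, with 52 of 82 lower, 12 higher and a median of -0.37. The copies Rps4l and Rpl39l stood apart from the rest. Rps4l had 4.75, 4.68, 4.55, 4.38 and 4.86, a mean of 4.64 ± 0.072. Rpl39l, best known from testis, had -5.92, -5.90, -6.16, -6.23 and -6.02, a mean of -6.05 ± 0.062, with red above background on 2 arrays. Probes of such copies may bind RNA of the parent gene.

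The 5 arrays differed from each other by far less than crypts did from the reference. The median SD of a feature over the arrays was 0.134, and of 14044 named genes seen in both channels on every array, 131 had an SD over 0.5 and 8 over 1. Array 3 lay at one end of several lists. Over the enterocyte genes arrays 3 and 4 had means of 6.60 and 6.58, against 6.33, 6.28 and 6.21 on arrays 1, 2 and 5. The mean of array 3 over cell cycle genes was the lowest of the 5 arrays, -1.50 against -1.20, -1.17, -1.22 and -1.09, and so was that over stem cell genes, 1.09 against 1.27, 1.27, 1.36 and 1.41. Of 319 solute carriers with a value on every array, 149 were highest on array 3, and of 81 cytochrome P450 genes 43 were, against 26.6% of all 14044 named genes. Sis had 8.78, 8.44, 9.42, 8.79 and 8.31 on the 5 arrays, the bile acid transporter Slc10a2 3.80, 4.22, 5.69, 4.94 and 3.48 with green above background on 2, and the glucose transporter Slc2a2 6.26, 5.92, 7.15, 6.30 and 5.69. In each of these transporters and in Sis, array 3 was the highest and array 5 the lowest. No test was made of these differences, since each is 1 array of a group.

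Other lists ordered the arrays in other ways. Stromal genes had list means of -3.36, -2.85, -2.82, -3.26 and -3.05 on arrays 1 to 5, the widest spread of any list (SD 0.24), with arrays 1 and 4 low. Dcn, a matrix proteoglycan, went from -3.06 on array 1 to -1.06 on array 2, and Lum, its relative, had -1.17, 0.93, 0.26, -0.84 and 0.78. Ribosomal protein genes were highest on array 1 for 56 of 82 and lowest on array 4 for 56. Pancreatic acinar genes were highest on arrays 1 and 4, with list means of 0.60 and 0.67 against 0.29, 0.27 and 0.39. Slide 1 held arrays at both ends of the stromal and red blood cell lists. Over all features, 19664 of the 19665 called had the same sign on both slides.

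**Figure D5:**
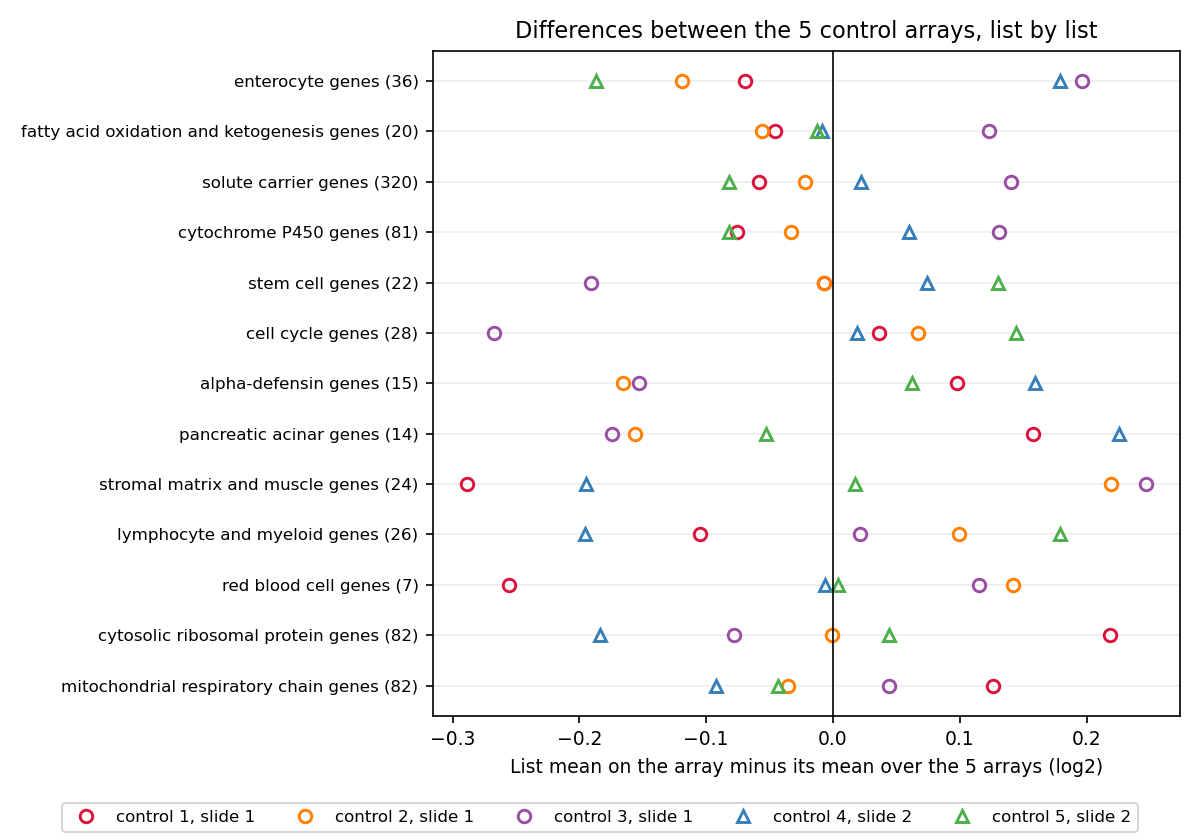
List mean on each control array minus the mean over the 5 arrays (log2) for 13 lists; circles are arrays of slide 1 and triangles those of slide 2. Array 3 is lowest for stem cell and cell cycle genes and highest for the enterocyte (with array 4 close to it), fatty acid oxidation, solute carrier and cytochrome P450 lists, and array 1 is lowest for stromal and red blood cell genes.

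The 10 genes with the largest SD show what a single array can do. Rnase10, a secreted protein of the epididymis, had 3.61, 0.77, -0.62, 0.06 and 0.38 on arrays 1 to 5, and Tpsb2, a mast cell tryptase, had 3.78, 0.92, -0.22, 0.09 and 0.56. The zinc finger genes Zfp488 and Zfp457 had 2.79, 1.25, -0.19, 0.23 and 1.02 and 2.78, 0.82, -0.06, 0.46 and 0.76, and Speer4d 2.61, 0.62, -0.41, -0.12 and 0.18. In all 5 genes array 1 was far the highest, followed by array 2, and array 3 was the lowest. Zfp580 (0.26, -1.50, -2.32, -2.03 and -1.93) and the keratin Krt79 (2.32, 0.68, 0.09, 0.12 and 0.21) were also highest on array 1. Mup19, a urinary protein, was highest on array 4, with 0.30, 0.34, 0.13, 2.63 and 1.50, and Ctse, a protease of stomach and immune cells, was highest on arrays 1 and 4, with 1.03, -0.46, -1.39, 0.81 and -0.76. Lum, given above, completes the 10. They were chosen for their spread, so the spread itself is a description.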

How the data were processed

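Of the 15 two-colour Agilent arrays, the 5 of control crypts were used. The deposited scanner files, from Feature Extraction per the file headers, hold spot intensity and background in both channels and a log10 ratio of red over green. The authors' deposited table of log2 ratios matched the values computed here at a correlation of 0.999987 or more on each array; R 3.0.0 and limma 3.6.7 are named in the submitters' processing notes. Median spot intensities were corrected in limma 3.58.1 (R 4.3.3) by normexp with an offset of 50, leaving out spots the scanner marked as uneven or outliers, and normalized by loess within arrays with the 1377 control spots at weight 0. Spots of a probe were averaged. Probes well above background in red or green on at least 4 of 5 arrays were kept (29376 of 39429), and the probe with the highest mean average intensity stood for a gene. Names came from RefSeq by accession (26581 of 39429 probes). The mean log2 ratio was tested against 0 with limma, two-sided, with Benjamini-Hochberg adjustment over 24605 features; 92 features lack a value on 1 array. The test covers the spread between these 5 samples, which may in part be technical, and not that of the reference. Bounds were taken per channel after loess and Aquantile normalization. Genes named are the 10 highest, the 10 lowest, the 10 largest bounds in each direction and the 10 largest SDs, and members of the lists, some of which are not reported here; the lists, the members and the tests were chosen with earlier results of these data known. Simulated data took each feature's spread from these arrays, with a mean of 0 for all but the changed features. Of 50 features each changed by 0.5, 1 and 2 on the log2 scale, 35, 49 and 50 were recovered. There were 11 false calls among 24605 features. In the real data most features differed from 0, so the simulated setting is unlike them in that respect. Alternatives tried were the scanner's own log ratio, an offset of 16, marked spots kept, median centring, a filter on both channels or none, the mean over probes, a fit of all 15 arrays, the slide as a random block, the deposited table, a test against a 2-fold ratio, and leaving out each array; each slide alone was added after seeing the data.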

Additional observations from a re-analysis of the deposited data

Results flagged for a closer look

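For 251 groups of 5 arrays (210 genes and 41 list means), the gap between 1 array and the others was examined. In 8 groups it was larger than chance gives in about 1 in 20 groups. That is a smaller share than 1 in 20, so the number flagged is not above what chance gives. Of the 8, 4 were on control array 1, 3 on array 3 and 1 on array 4. Tpsb2 and Krt79 among them were also chosen for their large SD. Over the fatty acid oxidation and ketogenesis genes, array 3 had a mean log2 ratio of 2.19, while the other arrays lay between 2.01 and 2.06. Cd74, the invariant chain of class II antigen presentation, had 5.52 on array 3 in 4.92, 4.97, 5.52, 4.85 and 4.92 on arrays 1 to 5. Serpina1a, an antiprotease made in quantity by the liver, had 3.01 on array 1 in 3.01, 3.71, 3.73, 3.84 and 3.77, and its 2 probes had means of 3.61 and 1.02. Tpsb2 had 3.78 and Krt79 2.32 on array 1, where all other arrays were below 1. The remaining 3 are genes whose red signal was above background on no array, so their ratios rest on a signal near background in crypts: Mmp3 had -4.98 on array 1, Cav2 -4.64 on array 4 and 4930550L24Rik -4.34 on array 3.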

How the results depend on the processing

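The 4 counts of features stayed within 1.5 times their values under every alternative run except these: with the scanner software's own log ratio 5406 features were at least 2-fold lower in place of 3580, and tested against a 2-fold ratio in place of 0, 3084 were higher and 2867 lower, fewer by construction. Leaving out each array in turn gave 9770 to 10299 features higher, 8922 to 9164 lower, 3652 to 3736 at least 2-fold higher and 3489 to 3661 at least 2-fold lower. The 3 arrays of slide 1 alone gave 9490 higher and 8703 lower, and the 2 of slide 2 alone 8487 and 8240. The correlation within slides was -0.12, and no call among the named genes was lost with slide as a random block. No paired analysis was possible because the comparison is of 1 group with a common reference, so replicate numbers pair nothing. Among the 210 named genes, Gfi1 turned to 0.22 under median centring (adjusted p = 0.037, limma). Dclk1 turned to 0.048 there, lay between -0.45 and 0.048 with each array left out (0.048 without control array 4), and turned to 0.15 on slide 1 alone; in the latter settings another of its 3 probes was the brightest. Besides these 2 genes no named gene that passed the test changed direction in the settings run, whereas Ctse, Hoxa9, Lum, Muc5ac, Muc5b, Pou2f3, Ptprc and Sox9, which did not pass it, lay on either side of 0; 33 calls were lost and 17 gained over all settings. The medians of 4 of the 41 lists changed sign under at least 1 setting, those of the endothelial, gonadal, lung and sex-linked genes. The medians of 17 of the 41 moved by over 1.5-fold under at least 1 setting, 12 of them with the scanner's own log ratio and 10 with marked spots kept. With the scanner's ratio the medians were 5.08 for UDP-glucuronosyltransferase, 6.08 for mucosal defence, 4.41 for goblet cell, 4.30 for ion and fluid transport, 1.43 for tuft cell, 4.41 for red blood cell and -4.73 for cultured mesenchymal cell genes. With marked spots kept they were 6.36 for Paneth cell, 7.32 for alpha-defensin, 5.93 for enterocyte and 2.50 for intestinal identity genes. None moved that far with an array left out, on 1 slide, or under median centring. Median centring moved the median of called features by 0.44, so ratios smaller than this depend on the normalization. The number of arrays and, for 2253 features in green and 1133 in red, a signal near background limit what can be told.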
